A study of Mus musculus with 6 samples.

Results

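A panel of 40 genes of the vessel wall was followed in tissue cut from beside the dorsal aorta of mouse embryos. It holds pan-endothelial, arterial, venous, VEGF and angiopoietin genes, chosen by symbol, with Notch and ephrin genes left out. All 40 were found, each with 1 probe set, among 24675 named genes on the array. The ventral group was tissue from under the aorta, and the dorsal group was tissue from the space separating the notochord and the aortic roof. Each group had 3 arrays, from C57Bl/6 embryos at embryonic day 10.5, and the labels name no mutant allele or treatment in either group. Both regions were cut by laser from stained frozen sections 20 µm thick, taken by position and out of the same embryos, with 200 to 1000 pg of RNA amplified per sample. The number of embryos behind a sample, and whether the aortic lining itself was cut with either region, are not given in the sources used here.

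Endothelial cells line all blood vessels. VEGF ligands act on them through the receptor kinases Kdr, Flt1 and Flt4 with neuropilins as co-receptors, and angiopoietins act through Tek. ETS factors such as Erg, Fli1 and Etv2 and the SOXF factors Sox7, Sox17 and Sox18 drive endothelial gene expression. Arteries and veins differ in their connexins and in the nuclear receptor Nr2f2, which sets venous identity. In the embryo some cells of the aortic lining turn into the first blood stem cells.

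Few panel genes had a signal above the upper range of genes that this tissue is not known to use. Values are RMA signals, which are background-corrected and normalised probe intensities on the log2 scale. The means of the 40 genes over the 6 arrays ran from 2.16 to 5.63 with a median of 3.29, against a median of 3.24 over all named genes. No detection calls were used, so 1365 olfactory and vomeronasal receptor genes, which embryonic aortic tissue is not known to use, served as a yardstick. The 95th percentile of their means was 4.66 and the median 2.59, and 35 of the 40 panel genes had a mean above that median. The receptor median itself lay at percentile 18.2 of the means of all named genes, so most named genes were above it too. In ventral tissue 3 panel genes had a mean above the 95th percentile level (Vegfb, Gja5 and Fli1), and in dorsal tissue 2 (Vegfb and Gja5). These counts are 7.50% and 5% of the panel, beside 7.70% of all named genes in ventral and 6.87% in dorsal tissue. The 16 pan-endothelial surface, junction and secreted genes, some of which other cells also make, all had group means below that level. Pecam1, an adhesion molecule of endothelial junctions, had 3.10, 3.04 and 2.65 in the ventral arrays, against 2.98, 2.77 and 3.21 in the dorsal arrays. Probe sets differ in brightness for reasons other than transcript number, so a dim signal is not shown to be an absent transcript. In bulk tissue fewer endothelial cells and less RNA per cell cannot be told apart.

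**Figure D1:**
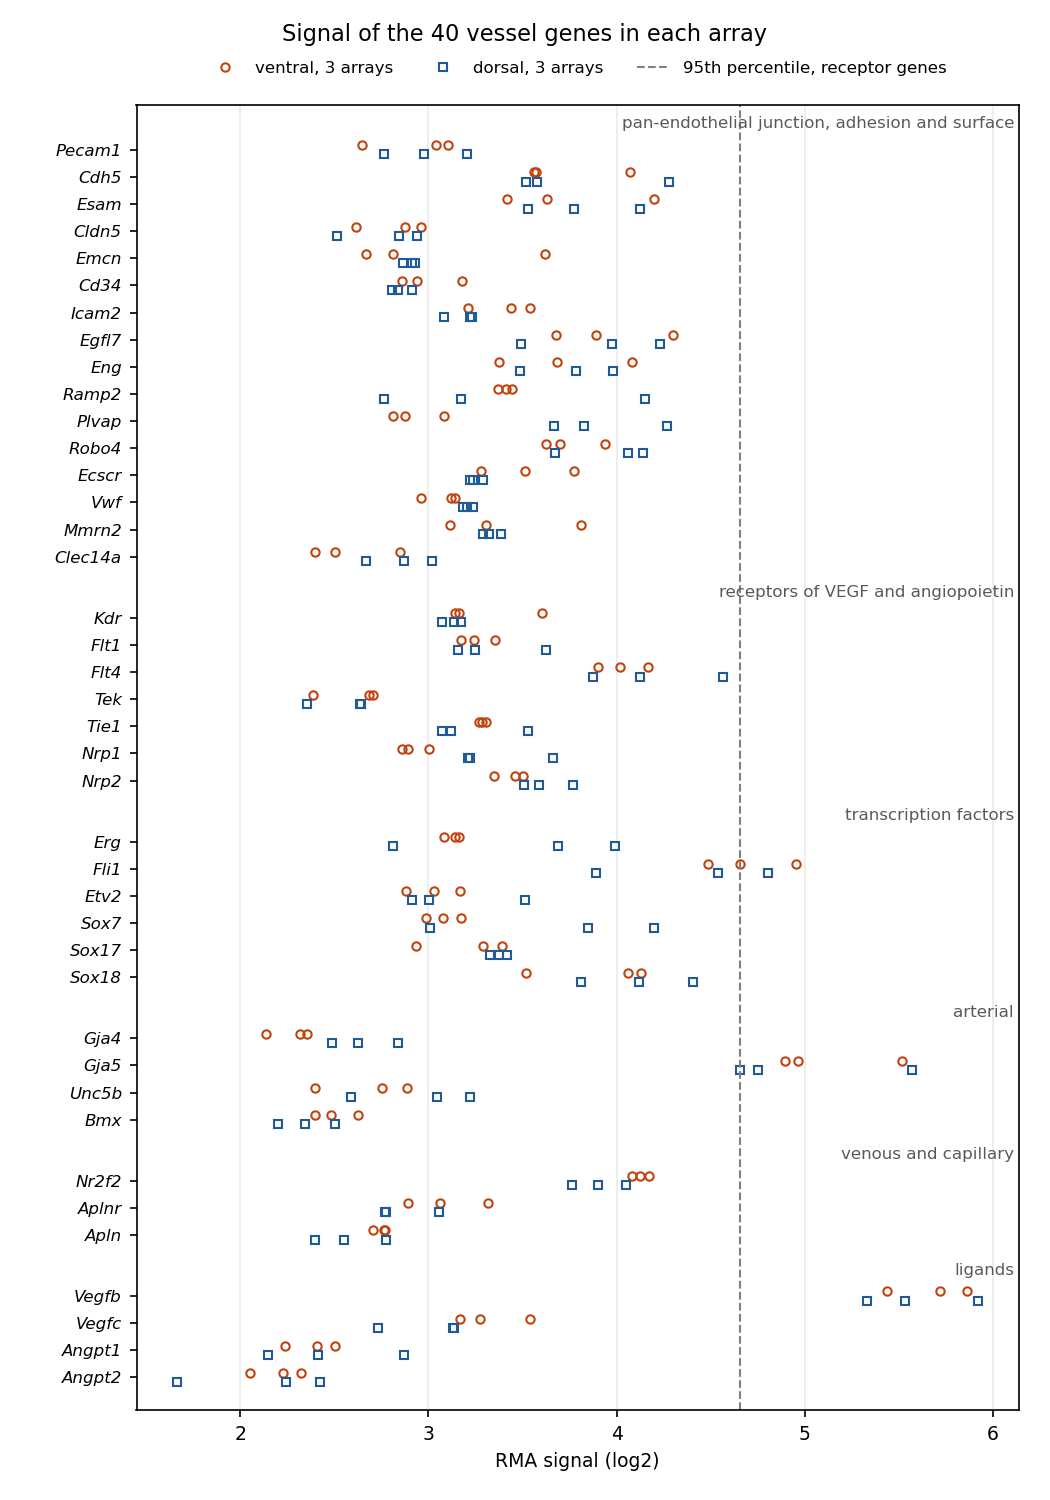
RMA signal (log2, horizontal axis) of each of the 40 genes, grouped by role, with circles for the 3 ventral and squares for the 3 dorsal arrays. The dashed line is the receptor gene level of 4.66, and Vegfb is the gene with all 6 arrays clearly to its right.

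**Figure D2:**
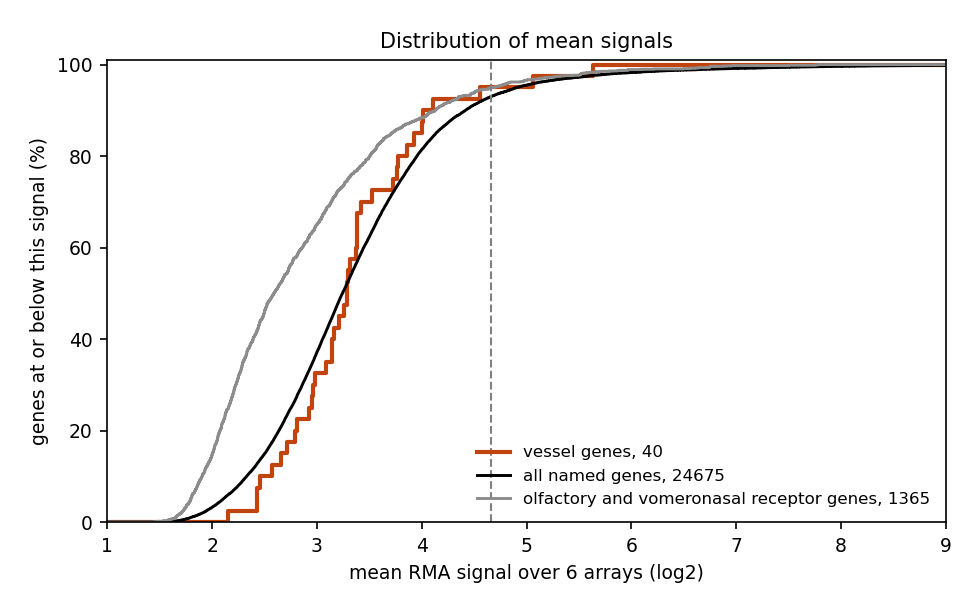
Share of genes (vertical axis, percent) with a mean signal over 6 arrays at or below the value on the horizontal axis (log2), for the panel, all named genes and the receptor genes. The panel median of 3.29 lies beside the median of 3.24 of all named genes, and the dashed line marks 4.66.

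Short windows before the gene starts were read from RefSeq on GRCm38.p6 to see what sequence the panel shares. The ETS-type core AGGAAG was searched on both strands in the 250 bases before each start, since 3 panel genes encode ETS factors. Windows were held for 24 of the 40 genes, 28 windows in all. AGGAAG was in 14 of the 28 windows (50%), against 29.5% of all 32851 windows. By gene, this was 13 of 24 (54.2%), against 32.3% of all 27025 genes. The related core CGGAAG was in 1 window (3.57%, against 13.6%). Either ETS-type core was in 50% of the panel windows and 39.2% of all. Either SOX-type core, ACAATG or ACAAAG, was in 25% of the panel windows and 25.2% of all. These searches can share bases with each other. The median GC content was 59.0% in the panel windows and 52.4% in all, and a match is a string of letters, not a site. Windows of the following 3 genes are printed because each holds AGGAAG and because each gene is given in every array in the results. The sequences run toward the gene start, and capitals mark AGGAAG or, in Gja5, also ACAAAG.
Gja5, chr3:97032152-97032401, plus strand: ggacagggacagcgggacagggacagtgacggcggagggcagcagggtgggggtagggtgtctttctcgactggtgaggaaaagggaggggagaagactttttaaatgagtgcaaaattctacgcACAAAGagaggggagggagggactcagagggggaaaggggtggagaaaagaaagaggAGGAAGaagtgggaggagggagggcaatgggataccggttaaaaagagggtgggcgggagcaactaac
Nr2f2, chr7:70366747-70366996, minus strand: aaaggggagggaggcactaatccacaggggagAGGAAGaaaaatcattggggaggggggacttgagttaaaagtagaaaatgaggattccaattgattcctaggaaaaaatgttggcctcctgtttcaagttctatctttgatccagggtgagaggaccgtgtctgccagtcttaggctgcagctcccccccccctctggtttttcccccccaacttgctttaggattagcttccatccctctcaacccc
Nrp1, chr8:128358823-128359072, plus strand: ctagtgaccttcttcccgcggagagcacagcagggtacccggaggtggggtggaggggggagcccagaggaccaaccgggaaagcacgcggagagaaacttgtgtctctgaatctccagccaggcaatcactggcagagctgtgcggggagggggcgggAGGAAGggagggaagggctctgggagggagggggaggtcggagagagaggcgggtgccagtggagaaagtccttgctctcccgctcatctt
AGGAAG starts 68 bases before the start in Gja5, 218 before it in Nr2f2 and 91 before it in Nrp1.

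The ventral against dorsal comparison asked whether vessel genes differ between the ventral side, where blood stem cells are known to emerge, and the dorsal side. No panel gene passed the test. Limma called 0 of 40 at an adjusted p of 0.05, where the share called over all named genes was 0%, and the lowest adjusted p in the panel was 0.384. At an unadjusted limma p under 0.05 there were 2 panel genes, both lower in ventral tissue. They are 5% of the panel, against 10.2% of all named genes, of which 4.32% were higher and 5.90% lower in ventral tissue. The direction of that background depended on scaling, with 42.2% of those genes higher in ventral tissue as deposited and 53.5% once every array was centred on its own median. In all 3 pairs of arrays with equal number, 5 genes were higher in ventral tissue (13.3% of all named genes) and 9 were lower (21.8%). Of the 40 genes 20 had a positive log2 fold change, against 42.0% of all named genes. The median of the panel was 0.00, against -0.06 over all genes. Its values lay between -0.996 and 0.33. The 95% interval included 0 for 38 genes, and for 37 it lay within -1 to 1, reaching 0.41 to 0.73 to either side of the value.

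**Figure D3:**
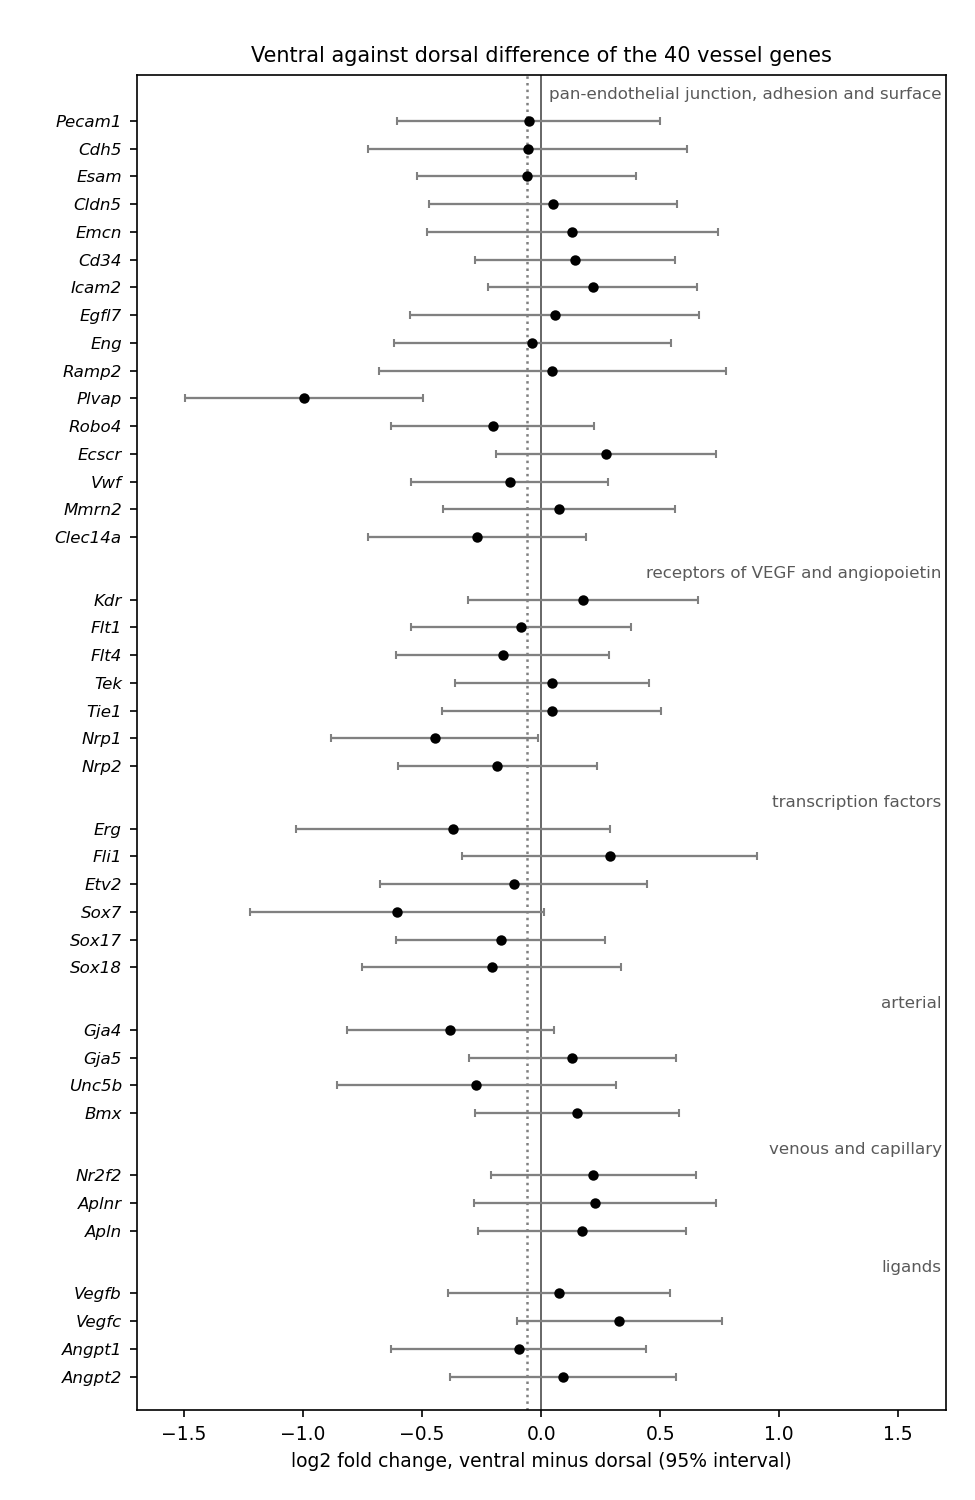
Log2 fold change of each gene, ventral minus dorsal (horizontal axis), with its 95% interval from limma. The solid line is 0 and the dotted line is the median of all named genes, -0.06, and Plvap and Nrp1 are the genes whose intervals exclude 0.

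In 7 genes the ventral and dorsal arrays did not overlap, which is 17.5% of the panel, against 18.7% of all named genes. Among the 1365 receptor genes of the yardstick the share was 25.2%. An unadjusted limma p under 0.05 was found for 15.97% of these receptor genes, against 5% of the panel. Both shares were thus higher among genes that this tissue is not known to use than in the panel. Of the 7, 5 were lower in all ventral arrays (12.0% of all genes) and 2 were higher (6.74%). The split changed with scaling. After centring, 5 genes were higher and 3 lower, while all named genes had 8.86% higher and 9.39% lower. After cyclic loess 7 were higher and 2 lower, while all named genes had 9.05% higher and 8.41% lower, so the background turned as well. Cd34, Icam2 and Kdr, which overlapped as deposited, were without overlap and higher in ventral tissue after both scalings, and Apln and Bmx after loess. Plvap, Nrp1, Nr2f2 and Vegfc, 4 genes, did not overlap under any of the 3 scalings. The share of all named genes without overlap under all 3 was not counted. In either direction it was 18.2% after centring alone and 17.5% after loess alone, so these 4 genes are not shown to exceed the background. These scalings of the overlap were added after the data had been seen.

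**Figure D4:**
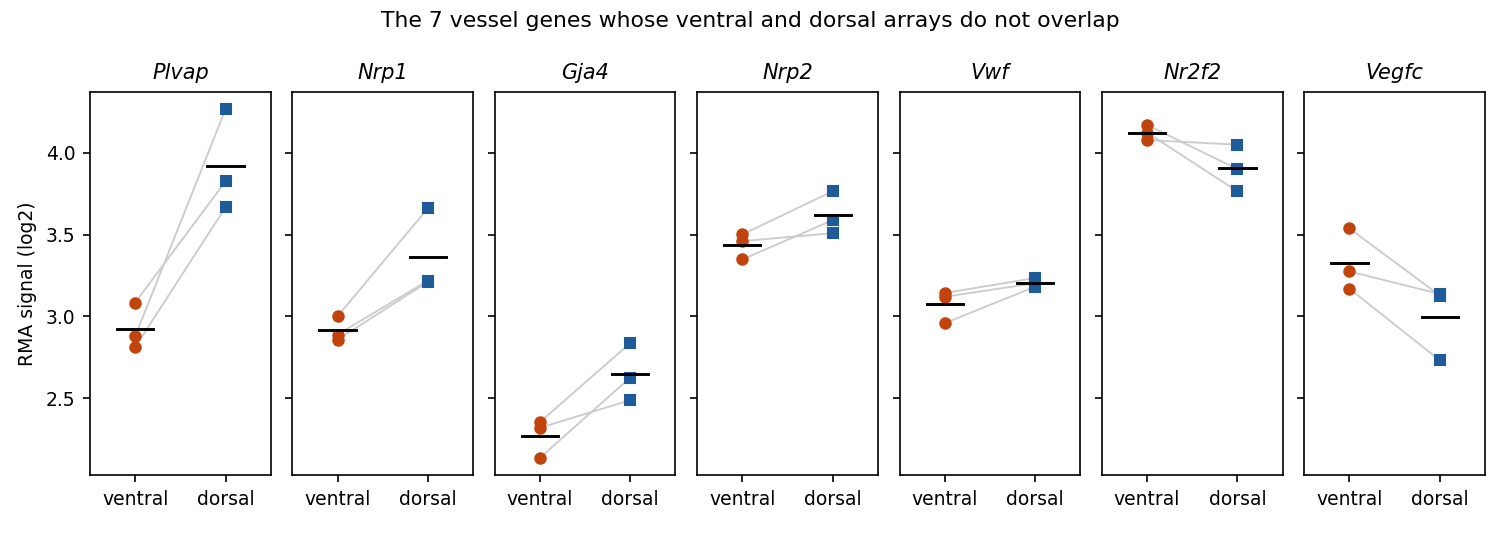
RMA signal (log2, vertical axis) of the 7 genes without overlap, with ventral arrays left and dorsal arrays right. Black bars are means of 3 arrays, and grey lines join arrays with the same replicate number, which the labels do not state to be the same embryo. Plvap has ventral arrays between 2.81 and 3.08 and dorsal arrays between 3.67 and 4.27.

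Among the 16 surface, junction and secreted genes shared by endothelium, 8 were higher and 8 lower in ventral tissue, with a median difference of 0.00. Plvap (NCBI gene 84094), which forms the diaphragms of fenestrae and small pits in the endothelial surface, had 3.08, 2.81 and 2.88 in the ventral arrays, against 3.83, 3.67 and 4.27 in the dorsal arrays. All 3 ventral arrays lay below all 3 dorsal arrays. Its log2 fold change was -0.996 ± 0.20 (SE), with a 95% interval from -1.50 to -0.50 and an adjusted p of 0.384 in limma. The unadjusted limma p of 0.00298 stayed under 0.05 in all 16 alternatives, and the adjusted p ran from 0.221 to 0.634 over them. Vwf, the platelet-binding protein of endothelium and megakaryocytes, had 3.14, 3.12 and 2.96 in the ventral arrays, against 3.24, 3.20 and 3.18 in the dorsal arrays. The ventral arrays were again all lower, but by little, and the difference was -0.13 with an interval from -0.54 to 0.28. Without overlap as deposited, Vwf overlapped after centring and after loess.

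Cdh5, the cadherin of endothelial junctions, had 4.07, 3.57 and 3.56 in the ventral arrays, against 3.52, 4.28 and 3.58 in the dorsal arrays. Each group had 1 high array, ventral array 1 and dorsal array 2, and the groups overlapped. The difference was -0.06 with an interval from -0.73 to 0.61. The difference of Pecam1 was -0.05 (interval -0.61 to 0.50). Esam, another junction adhesion molecule, differed by -0.06, and Cldn5, the claudin of endothelial tight junctions, by 0.05. The mucin-like surface proteins Emcn and Cd34 had positive differences that did not pass the test. Emcn had a mean of 3.03 ± 0.51 in ventral and 2.90 ± 0.03 in dorsal tissue (SD, n = 3 each), the wide ventral spread coming from 1 array at 3.62. Cd34, also carried by blood progenitors, had 2.99 ± 0.17 in ventral and 2.85 ± 0.05 in dorsal tissue, and all 3 pairs of equal number were higher in ventral tissue.

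The remaining surface and secreted genes did not pass the test either. Icam2, a ligand of leukocyte integrins, differed by 0.22, and Ecscr, a regulator of endothelial migration, by 0.27. Egfl7, a secreted protein of endothelium, differed by 0.06, Eng, a co-receptor of BMP ligands, by -0.04, and Robo4, an endothelial guidance receptor, by -0.20. Clec14a and its matrix ligand Mmrn2 had -0.27 and 0.08. Ramp2, which makes the receptor for adrenomedullin together with Calcrl, had a difference of 0.05. Its ventral arrays lay between 3.37 and 3.44, while the dorsal arrays ran from 2.77 to 4.15.

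Of the 7 receptors of VEGF and angiopoietin ligands, 3 were higher and 4 lower in ventral tissue, with a median difference of -0.08. Both neuropilins were lower in all ventral arrays. Nrp1 (NCBI gene 18186), a co-receptor for VEGF and semaphorins and known from arteries, had 3.00, 2.89 and 2.86 in the ventral arrays, against 3.66, 3.22 and 3.21 in the dorsal arrays. The groups did not overlap, and dorsal array 1 was the highest. Its log2 fold change was -0.45 ± 0.18 (SE), with an interval from -0.88 to -0.01 and a limma adjusted p of 0.484. Its unadjusted limma p of 0.046 stayed under 0.05 in 5 of the 15 alternatives that tested it. Nrp2, the neuropilin of veins and lymphatics, had 3.35, 3.46 and 3.50 in the ventral arrays, against 3.59, 3.51 and 3.77 in the dorsal arrays. The groups were separate by a narrow margin, and the difference of -0.18 had an interval from -0.60 to 0.23. After centring or loess the arrays of Nrp2 overlapped.

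Kdr, the main signalling receptor for VEGF-A, had 3.61, 3.14 and 3.16 in the ventral arrays, against 3.07, 3.17 and 3.14 in the dorsal arrays. As deposited, ventral array 1 alone stood above the rest, and the difference was 0.18 (interval -0.31 to 0.66). Tek, the angiopoietin receptor, had 2.39, 2.68 and 2.71 in the ventral arrays, against 2.36, 2.64 and 2.64 in the dorsal arrays. Within each number the arrays were nearly equal, and the difference was 0.05 (interval -0.36 to 0.45). Tie1, the partner of Tek, differed by 0.04, Flt1, the VEGF receptor that also acts as a decoy, by -0.08, and Flt4, the receptor for VEGF-C, by -0.16.

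Transcription factors had 5 of 6 negative values and a median difference of -0.19. None passed, and none had groups without overlap. Sox7 came nearest, with 3.08 ± 0.09 in ventral and 3.68 ± 0.61 in dorsal tissue (SD, n = 3 each), a difference of -0.61 with an interval from -1.22 to 0.01. Its dorsal arrays were at 3.85, 3.01 and 4.20, so the middle one lay among the ventral arrays. With arrays left out its difference ran from -0.94, without dorsal replicate 2, to -0.35, without both arrays numbered 3, and its unadjusted limma p was under 0.05 in 4 of the 16 alternatives. Sox17, the SOXF factor of arterial and haemogenic endothelium, had 2.93, 3.29 and 3.39 in the ventral arrays, against 3.33, 3.37 and 3.42 in the dorsal arrays. These overlapped, with ventral array 1 lowest, and the difference was -0.17 (interval -0.61 to 0.27). Sox18, known from lymphatic development, differed by -0.21.

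The ETS factors did not share a direction. Fli1, an ETS factor of endothelium and blood, had 4.48, 4.95 and 4.65 in the ventral arrays, against 4.80, 4.54 and 3.89 in the dorsal arrays. The groups overlapped, with dorsal array 3 lowest, and the difference was 0.29 (interval -0.33 to 0.91), or 0.027 without dorsal replicate 3 and 0.59 without both arrays numbered 1. Erg, which maintains endothelial identity, had a difference of -0.37. Its dorsal arrays were spread from 2.81 to 3.99 around ventral arrays between 3.08 and 3.16, and the difference was -0.12 without dorsal replicate 2 and -0.72 without both arrays numbered 3. Etv2, which starts endothelial and blood development and acts early in the embryo, differed by -0.12.

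The arterial genes were split, with 2 higher and 2 lower. Gja4 and Gja5 encode connexins 37 and 40, gap junction proteins of arterial endothelium. Gja4 had 2.35, 2.13 and 2.32 in the ventral arrays, against 2.84, 2.63 and 2.49 in the dorsal arrays. All ventral arrays were lower, and the difference was -0.38 with an interval from -0.82 to 0.05 and a limma adjusted p of 0.521. Gja4 was dim, with a mean above that of only 13.7% of named genes, and its arrays overlapped after loess. Gja5 had 4.89, 4.96 and 5.52 in the ventral arrays, against 4.75, 4.66 and 5.57 in the dorsal arrays. Array 3 was the highest on both sides, and the difference was 0.13 (interval -0.30 to 0.56). Unc5b, a netrin receptor of arteries and sprouting tip cells, differed by -0.27, and Bmx, a kinase of arterial endothelium, by 0.15.

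All 3 venous and capillary genes were higher in ventral tissue, without passing the test. Nr2f2, also called COUP-TFII, is expressed in mesenchyme as well as in veins. Its signal was 4.17, 4.08 and 4.12 in the ventral arrays, against 3.90, 4.05 and 3.76 in the dorsal arrays. Every ventral array exceeded every dorsal array, by a narrow margin, and the difference was 0.22 (interval -0.21 to 0.65, limma adjusted p 0.670). Aplnr, the apelin receptor of venous and sprouting endothelium, had 3.32, 3.06 and 2.89 in the ventral arrays, against 2.77, 2.77 and 3.06 in the dorsal arrays. These overlapped, and the difference was 0.22 (interval -0.28 to 0.73). Its ligand Apln differed by 0.17.

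Of the 4 ligands, only Vegfc had all ventral arrays above all dorsal arrays, and the margin was narrow. Vegfc, the growth factor of lymphatic and venous sprouting, had 3.54, 3.17 and 3.28 in the ventral arrays, against 3.13, 2.73 and 3.14 in the dorsal arrays. The groups were separate, with dorsal array 2 lowest, and the difference was 0.33 (interval -0.10 to 0.76, limma adjusted p 0.554). Its receptor Flt4 did not share that direction. Vegfb, a ligand of Flt1 that many tissues make, had 5.86, 5.72 and 5.43 in the ventral arrays, against 5.92, 5.33 and 5.53 in the dorsal arrays. The groups overlapped fully, and the difference was 0.08 (interval -0.39 to 0.54). Angpt1, which activates Tek, differed by -0.09 and Angpt2, which can block it, by 0.09.

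Spread among dorsal arrays was wider than among ventral arrays for 25 of the 40 genes, against 66.0% of all named genes. The median SD of a panel gene was 0.17 in ventral and 0.25 in dorsal tissue. In dorsal tissue 3 genes had an SD above 0.6 (Ramp2, Erg and Sox7), and in ventral tissue 0, the highest being 0.51 for Emcn. Ventral arrays 1, 2 and 3 held the highest value of 15%, 7.50% and 17.5% of the panel genes, against 11.5%, 10.4% and 14.6% of all named genes. Dorsal arrays 1, 2 and 3 held that of 20%, 12.5% and 27.5% of the panel, against 18.2%, 23.1% and 22.1% of all named genes. Array means of the panel were 3.36, 3.28 and 3.33 in ventral and 3.36, 3.33 and 3.43 in dorsal tissue, so the groups overlapped. Pearson correlations across all named genes lay between 0.887 and 0.898 within ventral tissue, 0.813 and 0.828 within dorsal tissue and 0.818 and 0.853 between the sides.

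Other endothelial and VEGF or angiopoietin pathway genes were read from a second list, of which 39 of 40 were measured. None passed the test, 14 were higher and 25 lower in ventral tissue, and the median was -0.12. At an unadjusted limma p under 0.05 there were 2 higher and 2 lower, together 10.3% of the list beside 10.2% of all named genes. Myct1, an endothelial membrane protein, had 4.08, 3.91 and 4.03 in the ventral arrays, against 3.50, 3.54 and 3.30 in the dorsal arrays. Rhoj, a small GTPase of endothelial migration, had 4.01, 4.21 and 4.40 in the ventral arrays, against 3.55, 3.78 and 3.29 in the dorsal arrays. In both genes all ventral arrays were higher, by 0.56 ± 0.18 and 0.67 ± 0.21 (SE), with limma adjusted p of 0.460 for each. The lower ones were Foxc1, a transcription factor of mesenchyme and arteries (-0.48), and Procr, the protein C receptor, known also from blood stem cells (-0.51). Without overlap there were 2 genes higher and 4 lower in ventral tissue, together 15.4% of the list beside 18.7% of all named genes. The 4 lower in all ventral arrays were Procr, Nostrin, Stab2 and Foxo1.

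Markers of other cell types that such tissue can hold were read beside the panel. The 12 measured erythroid genes had array means from 4.94 to 6.65 in ventral and 5.11 to 6.13 in dorsal tissue, with 7 of 12 positive and a median difference of 0.15. Within that list Slc25a37, the mitochondrial iron importer, differed by 1.81 and Hbb-bs, a beta globin, by 1.30, followed by Klf1 (0.32) and Gata1 (0.38). Bright globins, named after their values were seen, had negative values in Hbb-bt (-0.56), Hbb-y (-0.37) and Hba-x (-0.29) and a positive one in Hbb-bh1 (0.38). Macrophage genes had means from 3.59 to 3.89 in ventral and 3.59 to 3.77 in dorsal tissue, with 5 of 11 positive and a median of -0.11. Cx3cr1 differed by 0.38, C1qa by -0.29, Adgre1 by 0.42 and Ptprc by -0.25. Megakaryocyte genes had means from 3.82 to 3.96 in ventral and 3.70 to 4.02 in dorsal tissue, with 3 of 6 positive, and Mpig6b differed by 0.47, Ppbp by -0.24, Itga2b by -0.08 and Gp1bb by 0.08. Blood stem and progenitor genes were positive in 3 of 10, with Tal1 at -0.45, Spi1 at -0.34, Gata2 at 0.32 and Gfi1b at -0.24. Their means were 3.46 to 3.52 in ventral and 3.49 to 3.69 in dorsal tissue. Smooth muscle and pericyte genes were positive in 3 of 12, with means from 3.49 to 3.57 in ventral and 3.50 to 3.79 in dorsal tissue. In that list Notch3 differed by 0.54, Cnn1 by -0.37, Acta2 by -0.80 and Mcam, which endothelium also makes, by -0.26. None of these genes passed the test, and the part of other cell types in the panel values was not tested.

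Markers of the labelled regions were checked in the same way. As deposited, all 10 measured notochord and sclerotome genes were lower in ventral tissue. Array means ran from 3.76 to 3.97 in ventral and 4.14 to 4.45 in dorsal tissue. Their differences ran from -1.40 to -0.02, and 42.0% of all named genes had a positive value. That share was 47.9% after centring and 49.2% after loess, and the list was not read under those scalings. Twist1, Foxc2 and Nkx3-2 had differences of -1.40, -0.50 and -0.51 without overlap, and Col2a1 had -0.46. The genes without overlap are 30% of the list, beside 12.0% of all named genes lower in all ventral arrays. Only Twist1 had a group mean above the receptor gene level. No gene of the list passed the test, and its lowest adjusted p in limma was 0.435. The 10 splanchnic and coelomic genes were positive in 5, with a median of 0.01 and means from 3.80 to 3.95 in ventral and 3.72 to 3.98 in dorsal tissue. Foxf2 differed by -0.71, with all ventral arrays below all dorsal arrays, against the side it was listed for. Tcf21 differed by 0.59, Gata6 by 0.45 and Foxf1 by -0.40. No gene of the splanchnic and coelomic list passed the test or had a group mean above the receptor gene level on either side.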

How the data were processed

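Transcript signals came from Affymetrix mouse Gene 2.0 ST arrays of 3 ventral and 3 dorsal samples, grouped by their titles. The deposited log2 values came from Affymetrix Expression Console and RMA, per the submitters' processing notes, which give no versions. The range of 0.97 to 12.9 points to log base 2. Of 25429 probe sets, 24675 had 1 gene symbol, and each was found in the GRCm38.p6 gene table by its number. The sources used here name no build for the probe sets.

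Ventral minus dorsal differences were fitted in limma 3.58.1 (R 4.3.3) over all 24675 genes with default eBayes, two-sided, with Benjamini-Hochberg adjustment over all genes. The replicate number was a block, since the tissues of both sides were cut from shared embryos, per the labels' protocols. The labels do not tie equal numbers to 1 embryo, and a fit without the block was planned as an alternative. Deviations of same-numbered arrays from their group means correlated at only -0.01 to 0.06. The p-values cover only the spread between these samples, which may be partly technical. With 3 against 3 arrays, an exact permutation test that ignores the block cannot give a two-sided p below 0.1. The number of arrays limits the precision. The procedure was tested on simulated data with the same spread on both sides and with changes larger than any in the panel. Changes of the size seen in the panel were not covered by that test.

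The rule for full values was an unadjusted p under 0.05, groups without overlap, a group mean above the receptor gene level, or membership of 8 fixed anchors, which gave 16 genes. Of each other list up to 4 genes with the smallest p are named. Members and lists were chosen with earlier results of these data known. Alternatives were no block, median centring, cyclic loess, filters on dim genes at the 25th percentile and the median, an intensity trend, array weights and arrays left out. Motifs were counted by exact match.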

Additional observations from a re-analysis of the deposited data

How the results depend on the processing

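No panel gene passed the adjusted threshold in any of the 16 alternatives to the fit with the replicate block. Over all named genes the count called was 1 with no replicate block, and 0 to 5 with arrays left out. Panel genes at an unadjusted p under 0.05 numbered 2 in that fit, 3 with no replicate block (with Gja4), 3 with array weights and 3 with an intensity trend (both with Sox7), 1 after cyclic loess, 1 after median centring, 1 in each filter on dim genes and 1 to 4 with arrays left out. Of all named genes the share at that p was 10.2% in the main fit, 11.2% with no block, 10.2% with array weights and 10.4% with the trend. It was 9.18% after loess, 9.87% after centring and 7.49% to 13.1% with arrays left out. Of the genes kept by the filters it was 9.65% above the 25th percentile and 9.43% above the median. Plvap was among the panel genes under 0.05 each time, with a log2 fold change from -1.12 to -0.80. The panel median of 0.00 became 0.047 after median centring, -0.038 above the 25th percentile (33 genes tested) and -0.047 above the median (22 tested), and ran from -0.11, without both arrays numbered 1, to 0.036, without dorsal replicate 3. The genes with a positive value numbered 10 above the median, where fewer were tested, and 16 to 22 with arrays left out.

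The filters, the trend and dropping the block cannot change a gene's value in this balanced design. Of 120 gene values under both scalings and array weights, 116 kept their direction. The exceptions were Pecam1 (0.0026), Vegfb (-0.0077) and Angpt1 (0.029) after cyclic loess and Eng (0.0064) after median centring. With arrays left out, 49 of 360 values changed direction, in 19 genes, over these ranges: Pecam1 -0.22 to 0.20, Cdh5 -0.36 to 0.27, Esam -0.28 to 0.11, Cldn5 -0.15 to 0.24, Emcn -0.18 to 0.32, Egfl7 -0.15 to 0.36, Eng -0.22 to 0.25, Ramp2 -0.27 to 0.44, Mmrn2 -0.12 to 0.22, Kdr -0.0018 to 0.28, Flt1 -0.18 to 0.064, Flt4 -0.32 to 0.027, Tek -0.048 to 0.15, Tie1 -0.051 to 0.19, Etv2 -0.30 to 0.14, Gja5 -0.066 to 0.42, Vegfb -0.081 to 0.24, Angpt1 -0.32 to 0.10 and Angpt2 -0.13 to 0.25. None of these was called, and the cause was not tested. Of the 21 genes that kept their direction with arrays left out, 17 moved by over 1.5 times, and the exceptions were Plvap, Nrp1, Gja4 and Nr2f2. Few panel signals were above the receptor gene level, 7.50% in ventral and 5% in dorsal tissue. The shares of all named genes were 7.70% and 6.87%, so this is not particular to the panel. Such dim signals limit what a difference near 0 can say.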
